A study of Mus musculus with 2 samples.

Results

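Killer lectin-like receptors were examined transcript by transcript in single γδ T cells of the mouse lung. The members were all genes whose symbol starts with Klr followed by a letter, which gave 26 genes, and Cd160, so that 27 of the 32285 gene identifiers in the files were described. The rule used symbols and no measured value, but the members were chosen with earlier results of these data known. There were 2 droplet libraries, 1 per group, from uninfected mice aged 5 to 7 weeks. The WT library held sorted lung γδ T cells without the Vγ1 chain from C57BL/6NCrl mice. The library labelled KO held sorted lung Vγ1+ cells from mice of the strain B6.Cg-Tcrgtm1lku(B6.Vg4-/-Vg6-/-) (Vγ4-/-/Vγ6-/-). The number of animals behind each library, and whether they were pooled, is not given in the sources used here. Genotype, strain label, sort and library changed together between the groups and cannot be told apart, and there were no replicates, so every difference given here is a difference between these libraries without a replicate check.

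Killer lectin-like receptors are C-type lectin proteins of the cell surface that natural killer (NK) cells and some T cells use to read ligands on neighbouring cells. Inhibitory members carry a motif that recruits phosphatases such as those encoded by Ptpn6, Ptpn11 and Inpp5d, and activating members signal through the adaptors DAP12 (Tyrobp) or DAP10 (Hcst). They are best known for missing-self recognition, in which inhibitory receptors that bind MHC class I proteins hold a killer cell in check, and γδ T cells with cytotoxic features can carry them as well. Cd160 is an immunoglobulin-like receptor and not a lectin, and was taken along because it is used by the same cells.

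The filter of the study's methods left 2505 WT cells with a median of 3288 unique molecular identifiers (UMIs) and 6634 cells labelled KO with a median of 3521 UMIs. The libraries shared 23 cell barcodes. The receptor genes were examined first as a check of the labels: Tcrg-V6 was read with 2906 UMIs in WT and 0 in the library labelled KO, and Tcrg-V1 at a CPM (its UMIs scaled to the UMIs of all genes in the library) of 28.0 in WT and 210.3 in the library labelled KO. Tcrg-V4 went against the label, with 715 UMIs (79.7 CPM) in WT and 1291 UMIs (49.8 CPM) in the library labelled KO, so every direction given below rests on the label. A UMI of Cd3e was read in 80.9% of WT and 83.0% of cells labelled KO at an equal depth of 2000 UMIs per cell, while Ncr1, the defining NK cell gene, had 16 and 8 UMIs in the libraries. Cells with B cell or myeloid markers made up 3.75% of WT and 0.874% of cells labelled KO.

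All 27 members are protein-coding genes. In the GENCODE annotation of GRCm38, 26 lie on chromosome 6, and 24 of them, from Klrb1a to Klra2, lie in 1 interval of 2638 kb, chr6:128609227-131247362, which is the NK gene complex. The genes that carried most of the UMIs lie close together in it: Klrd1 (129591782 to 129598775, plus strand), Klrk1 (129610323 to 129623864, minus strand) and Klrc1 (129666015 to 129678973, minus strand). The sparser Klrc3 (129639064 to 129643337) and Klrc2 (129647496 to 129660689) lie between Klrk1 and Klrc1, also on the minus strand. Klrg1 (122270596 to 122282882) and Klrg2 (38625693 to 38637242) lie elsewhere on chromosome 6, and Cd160 lies on chromosome 3 (96798763 to 96829351), where it overlaps Pdzk1 on the other strand.

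How far counts of 1 member could hold reads of another was described by the share of each gene's 50-base transcript stretches that also occur in a transcript of another gene. Klrk1, Klrd1, Klrg1 and Klra2 shared none. The share was 38.6% for Klrc1, with 36.6% shared with Klrc2, 36.3% for Klrc3 and 16.3% for Klrc2. Among the 11 Klra genes it ran from 0 to 39.8% (Klra10), and it was 27.2% for Klrb1b and 16.98% for Klrb1c, both mainly through the overlapping gene Gm44511. Reads of such stretches cannot be assigned from these files, and counts of the 10 members that share over 10% are uncertain by an amount that was not measured.

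The coding starts of Klrc2 and Klrc3 show how close such copies can be in part. Over whole transcripts, 31.1% of the stretches of Klrc3 also occurred in Klrc2. Klrc2 shared most with Klrc1, at 12.4%. The first 90 coding bases in exon 1 of each are printed here in the order of the minus strand, from GENCODE transcripts on GRCm38 (Klrc2 chr6:129660467-129660556, Klrc3 chr6:129643199-129643288), with the base that differs in capitals. They differ at 1 position, T70C, counted from 1 at the A of the start codon with the base of Klrc2 first.
Klrc2: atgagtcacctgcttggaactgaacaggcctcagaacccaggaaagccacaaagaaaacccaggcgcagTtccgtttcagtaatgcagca
Klrc3: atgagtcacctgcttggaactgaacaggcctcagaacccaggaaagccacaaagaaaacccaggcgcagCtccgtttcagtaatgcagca

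The promoters of Klrk1 and Klrc1 are shown because these nearby genes were read at higher levels in different WT cells, as described below. The 250 bases before the RefSeq start are printed 5′ to 3′ on the minus strand of GRCm38.p6 (Klrk1 chr6:129623865-129624114, Klrc1 chr6:129678974-129679223). Capitals mark the core TGTGGT bound by RUNX factors, which lies 129 bases before the start of Klrk1 and, on the reverse strand as ACCACA, 87 bases before the start of Klrc1.
Klrk1: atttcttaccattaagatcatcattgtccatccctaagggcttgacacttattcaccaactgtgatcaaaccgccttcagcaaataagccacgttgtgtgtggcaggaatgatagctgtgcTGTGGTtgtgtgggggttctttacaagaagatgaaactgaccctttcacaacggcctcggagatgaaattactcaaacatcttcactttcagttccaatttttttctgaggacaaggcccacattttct
Klrc1: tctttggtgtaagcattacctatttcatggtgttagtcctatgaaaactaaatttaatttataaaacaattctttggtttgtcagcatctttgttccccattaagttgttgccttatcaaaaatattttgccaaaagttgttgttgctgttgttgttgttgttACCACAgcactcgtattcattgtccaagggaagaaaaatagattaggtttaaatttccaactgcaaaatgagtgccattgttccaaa

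RefSeq promoters were matched for 24 of the 27 members, with 30 starts. The RUNX core was found on either strand in 11 of the 30, belonging to Cd160, Klra1, Klrb1a, Klrb1c, Klrc1, Klrc2, Klrc3, Klre1 and Klrk1, and in 14.0% of all 32851 promoters of this length. The TCF/LEF core CTTTGA was found in 5 of the 30 (Cd160, Klra6, Klra7 and Klrb1f) and in 13.8% of all promoters. The T-box core AGGTGT was found in 1 of the 30 (Klrb1) and in 11.8% of all. The T-box and RUNX cores can overlap, as both hold the letters TGT, and no member held both. A match describes the sequence and not a binding site.

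Of the 27 members, 25 were read with a UMI in WT and 26 in the library labelled KO. The members held 4274 UMIs in WT and 7909 in the library labelled KO, and Klrk1, Klrd1 and Klrc1 together made up 73.6% and 72.3% of them. Klrk1 took the largest share in WT (32.3%, against 21.7% for Klrd1 and 19.6% for Klrc1). Klrd1 took the largest share in the library labelled KO (43.6%, against 11.2% for Klrk1 and 17.6% for Klrc1). Klra10 was at 0 in both, which at 2000 UMIs per cell limits cells with a counted Klra10 UMI to 0.141% in WT and 0.0517% in the library labelled KO. It does not limit cells that express the gene, as 39.8% of its stretches are shared with other genes. Klrg2, Klrb1a, Klrb1, Klra17 and Klra4 had between 0 and 13 UMIs per library and are not compared. The other 21 had at least 30 UMIs over both libraries.

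Between the libraries the CPM of the 21 measured members was at least 2-fold higher in the library labelled KO for 1 member and at least 2-fold lower for 8, and lay between for 12. Of 12275 genes measured in the same way, 2.94% were at least 2-fold higher and 7.09% at least 2-fold lower. The median log2 ratio, library labelled KO over WT, was -0.69 over the members and 0.02 over all measured genes.

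**Figure D1:**
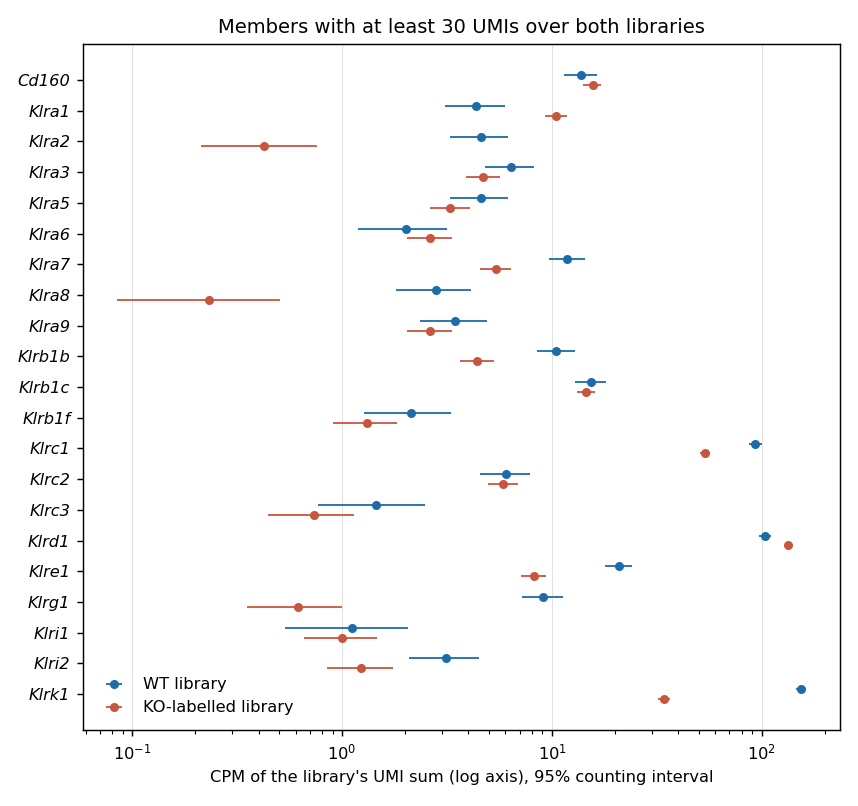
CPM (log axis) of the 21 members with at least 30 UMIs in the WT library (blue) and the library labelled KO (red), with points for the level and bars for its exact Poisson 95% interval (counting error only). Klrk1 stands at 154 in WT and 34.0 in the library labelled KO, Klrd1 at 104 and 133, and Klra1 at 4.35 and 10.5.

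Klrk1 encodes NKG2D, an activating receptor for stress-induced ligands that signals through DAP10 and DAP12 in mice. It was read with 1381 UMIs (154 CPM) in WT and 882 UMIs (34.0 CPM) in the library labelled KO, a log2 ratio of -2.18 (95% interval -2.30 to -2.05, which like all intervals here covers counting error only). At 2000 UMIs per cell, 22.8% of WT cells (95% Clopper-Pearson interval 21.0 to 24.6) and 4.93% of cells labelled KO (4.38 to 5.51) held a Klrk1 UMI, against 29.3% and 8.25% at full depth. The background share, taken from cells with B cell or myeloid markers, was 5.71% of 70 WT cells and 0 of 41 cells labelled KO, which allows up to 7.32%. The WT share lay above the interval of its background (1.58 to 14.0), and the share over all cells labelled KO could not be told from background.

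Klrd1 encodes CD94, the common partner of the NKG2 chains encoded by Klrc1, Klrc2 and Klrc3. It was read at 104 CPM (929 UMIs) in WT and 133 CPM (3449 UMIs) in the library labelled KO, a log2 ratio of 0.36 (0.26 to 0.47). The share of cells at 2000 UMIs was 13.5% and 18.8%, against a background of 7.14% (2.36 to 15.9) and 7.32% (1.54 to 19.9), whose intervals hold the library shares because the background rests on few cells. Klrc1 encodes NKG2A, the inhibitory chain that reads the MHC class Ib protein Qa-1. It was read at 93.2 CPM (836 UMIs) in WT and 53.6 CPM (1389 UMIs) in the library labelled KO, a log2 ratio of -0.80 (-0.92 to -0.67). Its share was 9.60% and 5.92%, against a background of 4.29% and 7.32%, and neither share could be told from background. The activating chains were sparse: Klrc2 had 54 and 152 UMIs with a log2 ratio of -0.04 (-0.49 to 0.44), and Klrc3 had 13 and 19 UMIs.

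The Klra genes encode the Ly49 receptors, most of which bind MHC class I proteins. Klra1 (Ly49A, inhibitory) was the only member at least 2-fold higher in the library labelled KO, with 4.35 CPM (39 UMIs) in WT and 10.5 CPM (271 UMIs) there, a log2 ratio of 1.27 (0.78 to 1.79). With all barcodes kept the ratio was 0.91 and no member reached 2-fold higher, as 1 WT cell removed by the filter held 19 Klra1 UMIs. Klra7 (Ly49G, inhibitory) went the other way, with 11.8 and 5.40 CPM and a log2 ratio of -1.13 (-1.50 to -0.75). Klra8 (Ly49H, the activating receptor for a cytomegalovirus protein) had 25 UMIs in WT and 6 in the library labelled KO, but 15 of the 25 came from 1 cell. Klra3, Klra5, Klra6 and Klra9 had log2 ratios from -0.48 to 0.39, each with an interval that held 0.

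Klra2 (Ly49B) differed from the other Ly49 genes in the cells that held it. Its 41 UMIs in WT came from 21 cells, of which 20 had myeloid markers and 15 (71.4%) had no Cd3 UMI, and all 8 cells with Klra2 in the library labelled KO had myeloid markers. Its log2 ratio of -3.43 stood beside -2.62 for Lyz2 and -2.37 for Csf1r, both myeloid markers. Klra2 thus marked the myeloid-marker cells in these libraries, and it stays in the counts of members below.

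The Klrb1 genes encode the NKR-P1 receptors, which bind Clec2 proteins on other cells. Klrb1c, which encodes NK1.1, had 15.4 CPM in WT and 14.5 CPM in the library labelled KO, a log2 ratio of -0.08 (-0.37 to 0.21). Klrb1b, an inhibitory receptor for the product of Clec2d, had 10.5 and 4.40 CPM and a log2 ratio of -1.25 (-1.66 to -0.84). Klrb1f, a receptor for the product of Clec2i, had 19 and 34 UMIs. Klre1 and its partners Klri1 and Klri2 form receptor pairs of their own: Klre1 was at 20.8 CPM (187 UMIs) in WT and 8.22 CPM (213 UMIs) in the library labelled KO, a log2 ratio of -1.34 (-1.63 to -1.05), and Klri2, with 28 and 32 UMIs, also had a log2 ratio of -1.34.

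Klrg1, an inhibitory receptor for cadherins that is common on differentiated killer cells, had the lowest log2 ratio of the members. It was read with 81 UMIs (9.03 CPM) in WT and 16 UMIs (0.618 CPM) in the library labelled KO, a log2 ratio of -3.87 (-4.74 to -3.08). Cd160, which binds the product of Tnfrsf14, had 13.7 and 15.6 CPM and a log2 ratio of 0.19 (-0.11 to 0.49). A Cd160 UMI was read in 2.31% of WT and 2.72% of cells labelled KO at 2000 UMIs, which could not be told from the background of 4.29% and 2.44%.

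The signalling list held 13 genes, of which 12 were measured, 1 at least 2-fold higher and 3 at least 2-fold lower in the library labelled KO. Hcst, the DAP10 adaptor of NKG2D, was read at 322.0 CPM in WT and 372.5 CPM in the library labelled KO, a log2 ratio of 0.21. Tyrobp, the DAP12 adaptor, was at 126.4 and 28.1 CPM (-2.17), Fcer1g, the Fc receptor γ chain, at 137.1 and 49.4 CPM (-1.47), and the kinase gene Syk at 12.6 and 3.40 CPM (-1.89). Myeloid cells use these 3 genes as well, and 838 of the 1134 Tyrobp UMIs in WT and 350 of 729 in the library labelled KO came from cells with B cell or myeloid markers. With these cells left out, a choice made after seeing the data, the log2 ratio was -1.23 for Tyrobp, -0.61 for Fcer1g and -0.999 for Syk, so that Fcer1g and Syk no longer reached 2-fold. Sh2d1a, which encodes the adaptor SAP, was at 46.7 and 99.7 CPM (1.09). Of the 12 ligand genes 9 were measured and none reached 2-fold in either direction, with log2 ratios from -0.22 for H2-T23, which encodes Qa-1, to 0.90 for Tnfrsf14.

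Levels within a library were then compared between cells with and without a UMI of Ly6c2, Gzma or Tmem176b, which are known as genes of memory-like, cytotoxic and IL-17-producing lymphocytes respectively. Ly6c2 was read in 458 WT and 1617 cells labelled KO, Gzma in 135 and 295, and Tmem176b in 1176 and 1522. Cells with a marker UMI were deeper than cells without it in every split, with the smallest gap for Ly6c2 in the library labelled KO (medians 3631 and 3476 UMIs) and the largest for Ly6c2 in WT (4214.5 and 3129 UMIs). CPM of the summed UMIs corrects for total depth, but detection of the marker itself depends on it.

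Cells with Ly6c2 held more of nearly every measured member in both libraries. In WT, 13 of 15 measured members were at least 2-fold higher in cells with Ly6c2 and 0 lower, where 3.61% of all measured genes were higher and 7.95% lower. In the library labelled KO 15 of 16 were higher and 0 lower, against 1.49% and 4.59% of all genes. The median log2 ratio over members was 2.32 in WT and 2.68 in the library labelled KO. Myeloid markers were also higher with Ly6c2 in WT, with Lyz2 at 1314.8 and 101.6 CPM (3.69) and Csf1r at 31.3 and 10.1 CPM (1.63), and Lyz2 was at 153.8 and 31.4 CPM in the library labelled KO (2.29). Without the cells with B cell or myeloid markers, 11 of 13 measured members in WT and 15 of 16 in the library labelled KO were at least 2-fold higher with Ly6c2. The share over all genes was not computed for this smaller set of cells, so these counts have no share of their own beside them.

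Klrd1 was at 270.1 CPM in WT cells with Ly6c2 and 51.4 without (log2 ratio 2.39), and at 270.1 and 83.9 CPM in the library labelled KO (1.69). The level with Ly6c2 was the same in both libraries, and at 2000 UMIs 38.4% and 37.5% of these cells held a Klrd1 UMI. Klrc1 was at 272.4 and 37.0 CPM in WT (2.88) and at 159.3 and 15.6 CPM in the library labelled KO (3.35). In the latter 17.9% (16.0 to 19.9) of cells with Ly6c2 held a Klrc1 UMI against 1.68% of cells without. The background rests on 41 cells, and its interval (1.54 to 19.9) holds both shares. It is thus too wide to place either share, although the 2 shares differ from each other. NK1.1, from Klrb1c, followed the same order with 43.9 and 6.44 CPM in WT (2.77) and 41.2 and 4.93 CPM in the library labelled KO (3.06). Among the Ly49 genes, Klra7 was at 37.8 and 3.66 CPM in WT (3.37) and Klra1 at 26.7 and 4.62 CPM in the library labelled KO (2.53).

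Klrk1 took another course. In WT it was lower in cells with Ly6c2 (112.1 CPM) than without (167.0 CPM), a log2 ratio of -0.57 (-0.78 to -0.37). In the library labelled KO it was higher in cells with Ly6c2, at 61.3 against 24.2 CPM, a log2 ratio of 1.34 (1.14 to 1.53). Among WT cells with neither Gzma nor Tmem176b, Klrk1 was nearly the same with and without Ly6c2, as given below. Klrb1b, the other exception in WT, had a log2 ratio of -0.21 (-1.004 to 0.52) there and of 1.58 in the library labelled KO, where Klrb1f (-0.47) was the exception. Of the adaptors in WT, Tyrobp was at 345.3 CPM with Ly6c2 and 57.8 without (2.58) and Fcer1g at 380.3 and 60.9 CPM (2.64), while Hcst was at 428.0 and 288.8 CPM (0.57). Without the cells with B cell or myeloid markers the log2 ratios by Ly6c2 in WT were 3.17 for Tyrobp and 3.27 for Fcer1g, and in the library labelled KO 2.55 and 2.66.

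**Figure D2:**
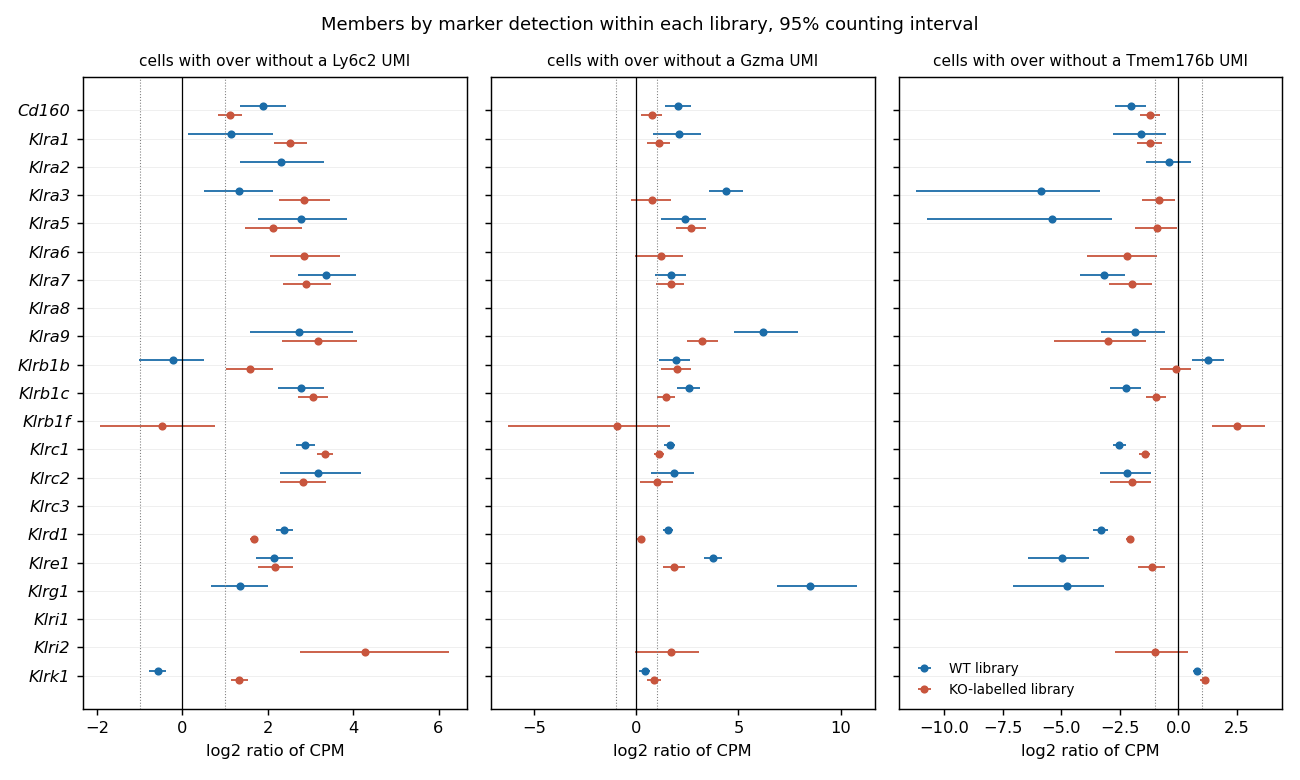
Log2 ratio of CPM in cells with over cells without a UMI of Ly6c2, Gzma or Tmem176b, for the measured members in the WT and the library labelled KO, with bars for the exact conditional 95% interval (counting error only), dotted lines at 2-fold either way and no point for Klra2 by Gzma in WT, where 1 side had 0 UMIs. Most members lie above 0 for Ly6c2 and Gzma and below 0 for Tmem176b, whereas Klrk1 lies above 0 for Tmem176b in both libraries, at 0.80 and 1.11.

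Gzma marked a smaller set of cells in which Klrg1 stood out. In WT, Klrg1 was at 130.5 CPM (78 UMIs) in cells with Gzma and 0.358 CPM (3 UMIs) in cells without, a log2 ratio of 8.51 (6.91 to 10.82), and 92.3% of the WT cells with a Klrg1 UMI also held Gzma. Klra9 (Ly49I) was at 43.5 and 0.597 CPM (6.19), Klra3 (Ly49C) at 56.9 and 2.75 CPM (4.37) and Klre1 at 153.9 and 11.3 CPM (3.76). Klra9 was read in only 17 WT cells and Klra3 in 22, and a few cells held 51.6% and 49.1% of their UMIs. In all, 13 of 15 measured members were at least 2-fold higher with Gzma in WT and 0 lower, against 4.86% and 9.71% of all genes. Some genes listed for αβ T cells were also higher in the WT cells with Gzma. Cd8a was at 132.2 and 2.63 CPM (5.65), Cd8b1 at 50.2 and 15.6 CPM (1.68) and Trac at 50.2 and 26.9 CPM (0.90). Trbc1 (0.66) and Trbc2 (0.29) rose less, and Cd4 had 0 UMIs with Gzma and 18 without. Trdc, the δ chain constant gene, was level at 189.1 and 198.4 CPM (-0.07). Of the 16 Ncr1 UMIs, 11 fell in cells with Gzma. The part of cells with these genes in the levels of the members was not tested. The 2 members that were not higher by this fold were Klrk1, at 200.8 and 150.6 CPM (0.42, 0.13 to 0.69), and Klra2, the myeloid-marker gene, of which none of the 41 UMIs fell in a Gzma cell.

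In the library labelled KO 11 of 16 measured members were at least 2-fold higher with Gzma and 0 lower, against 2.67% and 6.1% of all genes. Among the measured members the leading genes were Ly49 genes, Klra9 with a log2 ratio of 3.24 and Klra5 (Ly49E) with 2.68. Klrg1, which led in WT, had too few UMIs to be measured there, with 8 in cells with Gzma (5.65 CPM) and 8 in cells without (0.327 CPM). Klre1 was at 26.1 and 7.19 CPM (1.86) and Klrc1 at 109.5 and 50.4 CPM (1.12). Klrd1 differed little, at 156.1 and 131.8 CPM (0.24, 0.04 to 0.44), whereas in WT it was at 271.1 and 91.6 CPM by Gzma (1.57).

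Tmem176b gave the reverse order. In WT, 1 of 15 measured members was at least 2-fold higher with Tmem176b and 12 were lower, against 5.43% and 8.64% of all genes. Klrd1 was at 19.2 CPM with Tmem176b and 191.4 without (-3.32), Klrc1 at 28.0 and 161.2 CPM (-2.53), Klre1 at 1.31 and 41.2 CPM (-4.97) and Klrg1 at 0.655 and 17.8 CPM (-4.76). Klrk1 was higher with Tmem176b, at 194.4 and 111.8 CPM (0.80, 0.64 to 0.96), and so was Klrb1b, at 14.6 and 6.15 CPM (1.25). At 2000 UMIs, 29.1% of WT cells with Tmem176b held a Klrk1 UMI and 2.16% a Klrd1 UMI, whereas 15.8% of cells without it held Klrk1 and 26.0% held Klrd1.

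Klrk1 and Klrd1 lay on the same sides in the library labelled KO as in WT, at lower levels of Klrk1. There 2 of 16 members were at least 2-fold higher and 9 lower with Tmem176b, against 7.08% and 5.57% of all genes. Klrk1 was at 56.1 CPM with Tmem176b and 25.9 without (1.11, 0.92 to 1.31), and its share at 2000 UMIs was 8.80% against 3.64%. Klrb1f was at 3.30 and 0.581 CPM (2.51), and Klrb1b, which was higher with Tmem176b in WT, had a log2 ratio of -0.11 (-0.77 to 0.51). Klrd1 was at 40.2 and 167.4 CPM (-2.06) and Klrc1 at 23.9 and 64.5 CPM (-1.43). Il17a, the cytokine gene of IL-17-producing γδ T cells, was at 394.5 CPM with Tmem176b and 68.7 without in WT, and at 73.1 and 2.85 CPM in the library labelled KO.

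Splitting the cells by the 3 markers at once showed where Klrk1 and the CD94/NKG2A genes met. In WT, 1117 cells with Tmem176b alone had 206.2 CPM of Klrk1, 11.3 of Klrd1 and 23.4 of Klrc1. The 346 cells with Ly6c2 alone had 97.2, 296.3 and 294.3 CPM of the same genes. The 58 cells with Ly6c2 and Gzma had 246.2, 365.5 and 440.1 CPM, so that all 3 genes were high together there.

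Among cells labelled KO, the 1335 with Tmem176b alone had 52.7 CPM of Klrk1, 18.8 of Klrd1 and 6.2 of Klrc1. The 1343 cells with Ly6c2 alone had 52.2, 286.9 and 155.1 CPM, and the 105 cells with Ly6c2 and Gzma had 118.2, 253.9 and 232.6 CPM. The 3503 cells with none of the markers had 11.2 CPM of Klrk1 but 114.6 CPM of Klrd1, and the 161 cells with Gzma alone had nearly the same, 11.4 and 99.8 CPM. The 859 WT cells with none of the markers had 96.8 CPM of Klrk1 and 101.8 of Klrd1. The 66 WT cells with Gzma alone had 199.0 CPM of Klrk1 and 243.7 of Klrd1. Of these 5 combinations, the libraries lay furthest apart in Klrk1 in cells with Gzma alone and in cells with no marker. The level of the KO-labelled cells with Gzma alone rests on 8 Klrk1 UMIs, so its place in this order is uncertain.

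**Figure D3:**
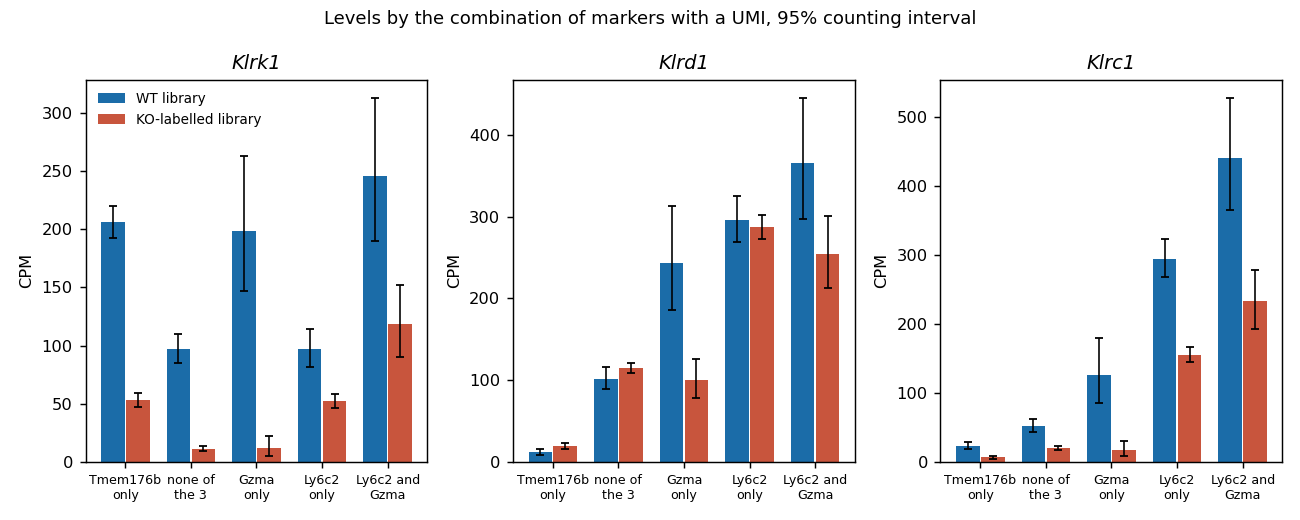
CPM of Klrk1, Klrd1 and Klrc1 in cells with none of the 3 markers, with Tmem176b, Ly6c2 or Gzma alone, and with Ly6c2 and Gzma, in the WT and the library labelled KO, with bars for the exact 95% Poisson interval (counting error only). In WT, Klrk1 is at 206.2 CPM and Klrd1 at 11.3 CPM in cells with Tmem176b alone, and all 3 genes are above 200 CPM in cells with Ly6c2 and Gzma.

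Comparing the libraries within marker groups kept Klrk1 lower in the library labelled KO in each of them. Its log2 ratio, library labelled KO over WT, was -1.79 in cells with Tmem176b and -2.11 without, -0.87 (-1.10 to -0.64) with Ly6c2 and -2.78 without, and -1.76 with Gzma and -2.21 without. The gap was thus smallest in cells with Ly6c2. Klrd1 was equal in cells with Ly6c2, at a log2 ratio of 0.00 (-0.14 to 0.14), higher in cells with Tmem176b (1.06) and without Ly6c2 (0.71), and lower without Tmem176b (-0.19). By Gzma it was lower with the marker, at -0.80 (-1.10 to -0.49), and higher without it, at 0.52 (0.41 to 0.64).

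The counts of members differed between these groups. With Tmem176b, 3 of 9 measured members were at least 2-fold higher in the library labelled KO and 2 lower, against 3.61% and 3.84% of all genes, the higher ones being Klrd1, Klre1 (1.76) and Klra1 (1.28). With Ly6c2, 1 of 17 was higher (Klra1, 1.84) and 5 lower, against 2.51% and 4% of all genes. With Gzma, 0 of 13 were higher and 8 lower, against 3.67% and 4.33%, led by Klrg1 (-4.53), Klra3 (-2.87) and Klre1 (-2.56). Gzma itself was at 927.4 CPM in these cells labelled KO and 4355.6 CPM in these WT cells (-2.23). Of 6 measured genes of NK and cytotoxic cells, among them Ccl5 (-2.04) and Nkg7 (-1.60), 5 were at least 2-fold lower as well. Cells with a Gzma UMI were thus not alike in the libraries, and the part of this in the levels of the members was not tested. In cells without the marker, 0 of 18 members were higher and 9 lower for Tmem176b (2.33% and 6.79% of all genes), 0 of 14 higher and 6 lower for Ly6c2 (3.84% and 6.77%), and 2 of 18 higher and 5 lower for Gzma (3.31% and 6.88%).

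Cells were also grouped by the Tcrg-V gene they held, taking cells with UMIs of a single one of these genes: 520 WT cells with Tcrg-V6, 410 WT cells with Tcrg-V4, 2128 cells labelled KO with Tcrg-V1 and 364 cells labelled KO with Tcrg-V4. Since the strain is labelled Vγ4-/-, these counts do not settle whether the Tcrg-V4 reads of the last group come from the targeted allele, and the group is named by its reads alone. The comparisons below share these groups and are not independent of each other. No Tcrg-V gene was read in 1094 WT and 3245 cells labelled KO, which enter none of them.

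In these 4 groups Klrk1 differed between the libraries more than between variable genes. It was at 188.4 CPM in WT cells with Tcrg-V6 and 159.2 CPM in WT cells with Tcrg-V4, and at 38.9 CPM with Tcrg-V1 and 40.8 CPM with Tcrg-V4 in the library labelled KO. The log2 ratio of Tcrg-V4 over Tcrg-V6 cells was -0.24 (-0.48 to -0.01) in WT, and that of Tcrg-V4 over Tcrg-V1 cells was 0.07 in the library labelled KO. Between the libraries it was -2.28 for KO-labelled Tcrg-V1 over WT Tcrg-V6 cells and -2.03 (-2.27 to -1.80) over WT Tcrg-V4 cells.

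Klrd1 was low in the Tcrg-V6 cells, and the other 3 groups lay closer together. It was at 19.2 CPM in WT Tcrg-V6, 113.1 in WT Tcrg-V4, 116.9 in KO-labelled Tcrg-V1 and 137.5 in KO-labelled Tcrg-V4 cells. The log2 ratio of WT Tcrg-V4 over Tcrg-V6 cells was 2.56 (2.05 to 3.1), and that of KO-labelled Tcrg-V1 over WT Tcrg-V4 cells was 0.05 (-0.18 to 0.28). Klrc1 was at 38.4, 101.7, 42.1 and 73.2 CPM in the same order of groups. Klre1 had no UMI in WT Tcrg-V6 cells, which puts WT Tcrg-V4 cells, at 20.2 CPM, at least 3.74 higher on the log2 scale.

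**Figure D4:**
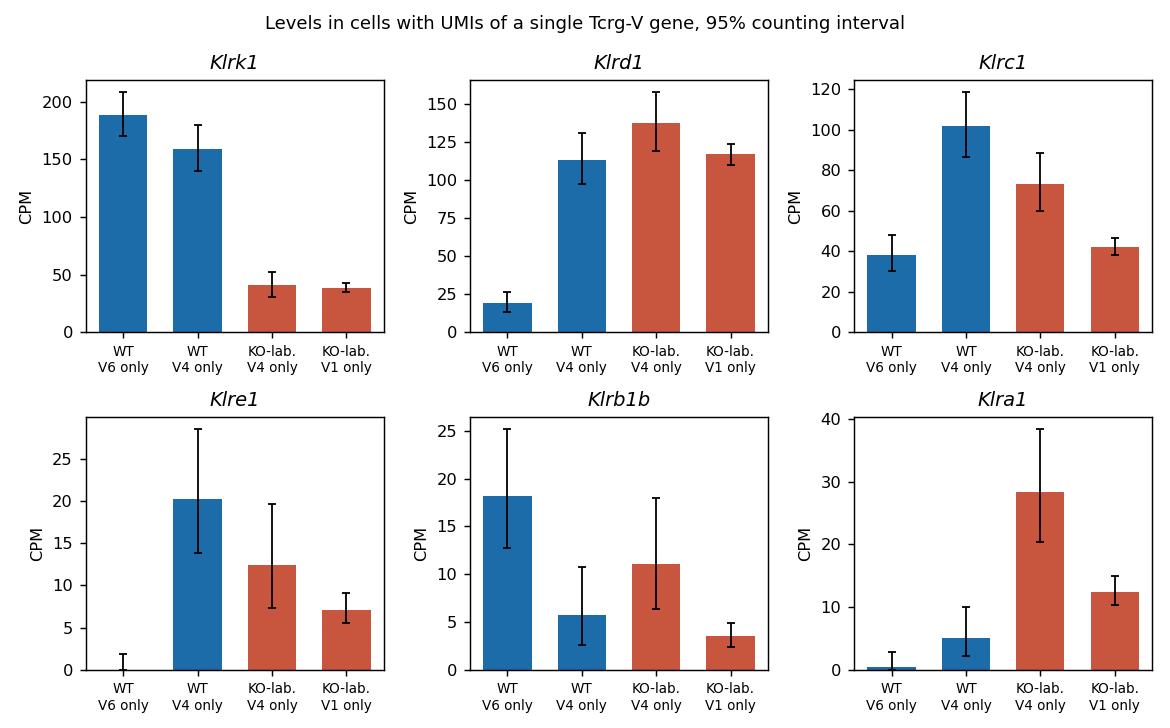
CPM of 6 members in WT cells (blue) with Tcrg-V6 or Tcrg-V4 alone (V6 only, V4 only) and in cells labelled KO (red) with Tcrg-V4 or Tcrg-V1 alone, with lines for the exact 95% Poisson interval (counting error only). Klrk1 separates the libraries (188.4 and 159.2 against 40.8 and 38.9 CPM), and Klrd1 separates the Tcrg-V6 cells (19.2 CPM) from the rest.

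Other members differed between groups at lower levels. Of 7 members measured in WT Tcrg-V4 against Tcrg-V6 cells, 4 were at least 2-fold higher and 1 lower, against 5.29% and 5.15% of all genes, the lower one being Klrb1b (5.69 and 18.2 CPM, -1.68). Of 11 measured in KO-labelled Tcrg-V1 against WT Tcrg-V6 cells, 7 were higher and 2 lower, against 10.8% and 6.86%. Of 13 measured in KO-labelled Tcrg-V1 against WT Tcrg-V4 cells, 1 was higher (Klra1, 12.5 and 5.05 CPM, 1.30 with an interval of 0.28 to 2.55, but -0.41 with all barcodes kept, where 1 WT cell adds 19 UMIs) and 4 lower, among them Klrc1 (-1.27), Klre1 (-1.50) and Klra7 (-1.84), against 4.41% and 3.54%. Within the library labelled KO, 3 of 13 were higher in Tcrg-V4 than in Tcrg-V1 cells and 1 lower, against 0.894% and 2.46%, with Klrb1b at 11.1 and 3.51 CPM (1.65) and Klra1 at 28.3 and 12.5 CPM (1.19).

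The marker splits were also taken within cells of 1 variable gene. In WT Tcrg-V4 cells, Klrc1 was at 293.0 CPM with Ly6c2 and 14.7 without (4.32), Klrd1 at 278.9 and 37.7 CPM (2.89) and Klrk1 at 123.3 and 175.5 CPM (-0.51). Of the 4 members measured there, 3 were at least 2-fold higher with Ly6c2 and 0 lower, against 2.27% and 8.24% of all genes. By Tmem176b the same WT Tcrg-V4 cells had 232.2 and 112.1 CPM of Klrk1 (1.05) and 14.5 and 176.5 CPM of Klrd1 (-3.604), with 1 of 4 members higher and 3 lower against 4.21% and 6.82% of all genes.

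In WT Tcrg-V6 cells, of which 458 held Tmem176b and 62 did not, Klrk1 was at 192.1 and 149.8 CPM, a log2 ratio of 0.36 whose interval (-0.22 to 0.99) held 0, while Klrd1 was at 12.7 and 86.4 CPM (-2.76). Klrd1 was the only 1 of 4 measured members past 2-fold there, 0 being higher, against 7.36% higher and 8.74% lower of all genes. In KO-labelled Tcrg-V1 cells, 11 of 11 measured members were at least 2-fold higher with Ly6c2 and 0 lower, against 1.54% and 3.8% of all genes, including Klra3 (4.42), Klrc1 (134.8 and 11.1 CPM, 3.603), Klrd1 (248.8 and 72.6 CPM, 1.78) and Klrk1 (64.8 and 30.1 CPM, 1.11). By Tmem176b, 1 of the 11 was higher and 8 lower in these cells, against 6.15% and 5.79%, with Klrk1 at 65.2 and 26.9 CPM (1.28) and Klrd1 at 34.8 and 154.1 CPM (-2.15). By Gzma, 4 of the 11 were higher and 0 lower, against 3.19% and 7.67%, and Klrd1 had a log2 ratio of 0.01.

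Combinations were read in single cells thinned to 2000 UMIs, which left 2125 WT and 5806 cells labelled KO. At least 1 member was read in 41.0% of WT cells (38.9 to 43.1) and 29.5% of cells labelled KO (28.3 to 30.6). At least 2 members were read in 12.5% (11.1 to 14.0) and 8.28% (7.59 to 9.02), at least 3 in 6.02% and 3.32%, and the most in 1 cell was 8 members in WT and 7 in the library labelled KO. A Klra gene was read in 4.38% and 3.01% of cells. At this depth most transcripts of a cell are not read, so a cell without a UMI of a member was not shown to lack it.

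**Figure D5:**
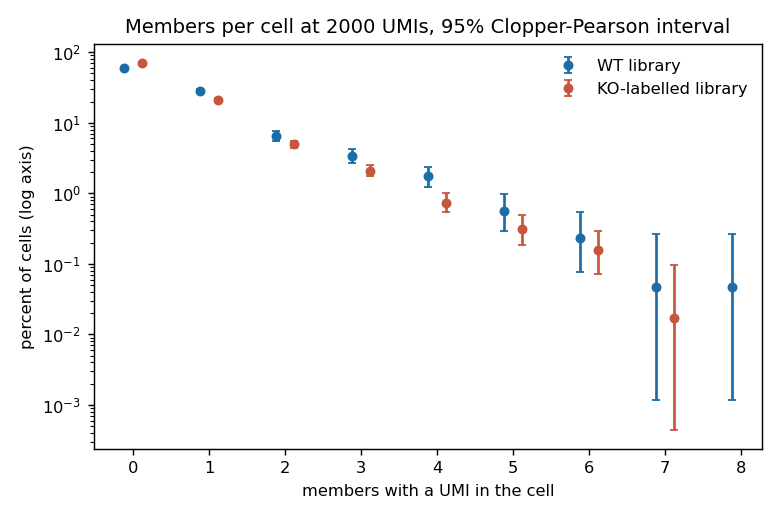
Share of cells (log axis, percent) with exactly 0 to 8 members with a UMI, at 2000 UMIs per cell, in the WT library (blue) and the library labelled KO (red), with bars for the Clopper-Pearson 95% interval (counting error only). No member was read in 59.0% of WT cells and 70.5% of cells labelled KO, and the shares with several members are higher in WT.

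Most cells with a member held a single one. In WT, Klrk1 alone was the most frequent state, in 351 cells (16.5% of all and 40.3% of those with a member), followed by Klrd1 alone in 142 cells (6.68%) and Klrc1 alone in 50. In the library labelled KO Klrd1 alone came first, in 817 cells (14.1% of all and 47.8% of those with a member), followed by Klrk1 alone in 137 cells (2.36%) and Klrc1 alone in 96. There were 146 different combinations in WT and 219 in the library labelled KO. The most frequent pair was Klrk1 with Klrc1 in WT (27 cells) and Klrd1 with Klrc1 in the library labelled KO (51 cells).

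Klrd1 was read more often in cells with Klrc1, whose product pairs with CD94, than in cells without it. A Klrd1 UMI was read in 34.3% of the 204 WT cells with Klrc1 and in 11.3% of those without, and in 36.6% of the 344 cells labelled KO with Klrc1 and in 17.7% of those without. The shares with Klrc1 lay near those of Klrd1 in all cells with Ly6c2, given above. At full depth 60.5% of WT and 71.4% of KO-labelled cells with Klrc1 held Ly6c2, so this is not shown to be a pairing beyond that subset. Klrc1 was read in 46.8% of the 47 WT cells with Klrb1c and in 45.3% of the 150 cells labelled KO, against 8.8% and 4.9% of cells without Klrb1c. Klrk1 and Klrd1 did not pair in this way in WT, where Klrd1 was read in 11.4% of cells with Klrk1 and 14.1% of cells without, and in the library labelled KO the shares were 23.1% and 18.6%. In WT, Klre1 was read in 53.8% of the 26 cells with Klrg1 and Klrd1 in 76.9% of them. In the library labelled KO, Klrb1c was read in 35.7% of the 70 cells with Klra1 against 2.2% of cells without, and Klra7 in 17.1% against 0.4%. These shares describe the cells of 1 library each and carry no test.

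What else the cells held separated Klrk1 from Klrd1. Of the 429 WT cells with Klrk1 and no Klrd1 UMI, 62.7% held Tmem176b, 37.5% Tcrg-V6, 22.4% Il17a, 8.39% Ly6c2 and 17.5% Ccl5, a chemokine gene of memory and cytotoxic cells. Of the 232 WT cells with Klrd1 and no Klrk1 UMI, 4.74% held Tmem176b, 3.88% Tcrg-V6, 1.29% Il17a, 52.6% Ly6c2 and 76.7% Ccl5. Ccr7, the lymph node homing receptor gene, was read in 8.39% of the former and 42.2% of the latter.

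The 220 cells labelled KO with Klrk1 and no Klrd1 UMI were less one-sided, with Tmem176b in 40.5%, Ly6c2 in 37.7%, Ccl5 in 49.1% and Ccr7 in 10.0%. The 1027 cells with Klrd1 and no Klrk1 UMI held Tmem176b in 4.28%, Ly6c2 in 43.4%, Ccl5 in 71.5% and Ccr7 in 49.6%.

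Cells with at least 3 members (128 in WT and 193 in the library labelled KO) held genes of memory and cytotoxic cells more often than cells with none. Ccl5 was read in 94.5% and 92.2% of them, against 14.99% and 25.1% of cells with no member, and Ly6c2 in 57.0% and 80.3% against 9.57% and 12.9%. The adaptors were frequent in them too, Tyrobp in 28.9% and 19.2% against 2.63% and 1.07%, and Fcer1g in 35.9% and 42.0% against 3.35% and 1.39%. Gzma was read in 34.4% of the WT and 14.5% of the cells labelled KO with at least 3 members. A Cd3 gene was read in 96.1% and 97.4% of them and Ncr1 in 3.13% and 1.04%, and Il17a in 1.56% and 0 of 193 cells.

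By marker, at least 2 members were read in 35.9% of WT cells with Ly6c2 and 6.40% without, and in 22.98% and 3.06% in the library labelled KO. The share with Gzma was 51.2% against 10.1% without in WT, and 42 of 280 cells against 7.94% in the library labelled KO. Tmem176b gave 4.49% against 21.2% in WT and 4.23% against 9.63% in the library labelled KO. By variable gene, the share was 5.18% in WT Tcrg-V6 cells, 12.5% in WT Tcrg-V4 cells, 9.38% in KO-labelled Tcrg-V4 cells and 8.03% in KO-labelled Tcrg-V1 cells, with the lowest value again in the Tcrg-V6 cells.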

How the data were processed

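Lung γδ T cells sorted by flow cytometry were profiled as 2 droplet libraries, WT (Vγ1-) and KO-labelled (Vγ1+). The deposited matrices hold UMI counts by gene and barcode, produced by the authors with Cell Ranger (version 7.0 per the submitters' processing notes, 7.0.0 per the file headers) on mm10 (GRCm38). An older release and a 5′ kit are named in the study's methods, and a 3′ protocol in the labels. The annotation release, and whether intronic reads or strand were used, is not given in the sources used here.

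Cells were kept by the study's filter of over 200 and under 4000 genes and under 10% mitochondrial UMIs. This left 2505 of 2520 WT and 6634 of 6688 KO-labelled barcodes, more than the study gives for either library. The kept cells held 8971636 and 25908306 UMIs. No doublet caller was run. All value columns mapped to a sample (0 did not).

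UMIs were summed over cells and given as CPM of the sum. Log2 ratios have exact conditional 95% intervals, CPM exact Poisson and shares exact Clopper-Pearson intervals, all for counting error only. A ratio was given for genes with at least 30 UMIs over both sums, and a sum of 0 was set to a floor of 3 UMIs. A gene could thus be measured through 1 side of a comparison alone, for the members and for all genes alike. With 1 library per group no test was run. Shares were taken after thinning each cell to 2000 UMIs, dropping 380 shallower cells in WT and 828 in the other library. Cells with at least 3 UMIs of B cell or myeloid markers, and more of these than of T cell markers, gave the background. Members with at least 30 UMIs were described with values and the others by range. The members and lists were chosen with earlier results of these data known. Python 3.11.15, numpy 2.4.6, scipy 1.17.1, pandas 2.3.3 and matplotlib 3.10.9 were used, and the steps were tested on simulated counts. Alternatives covered the cell filter, the UMI minimum, the thinning depth, the marker threshold and the cells left out.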

Additional observations from a re-analysis of the deposited data

Results flagged for a closer look

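Klrk1 differed in direction between the libraries by Ly6c2. Its log2 ratio of cells with over cells without a Ly6c2 UMI was -0.57 (-0.78 to -0.37) in WT and 1.34 (1.14 to 1.53) in the library labelled KO, each from 1 library, and the difference was not tested. Klrk1 was at 112.1 CPM with Ly6c2 in WT and at 61.3 CPM in the library labelled KO, and at 167.0 and 24.2 CPM without it. Among cells with neither Gzma nor Tmem176b the WT decrease was absent, with Klrk1 at 97.2 CPM with Ly6c2 and 96.8 CPM without. In the library labelled KO such cells had 52.2 and 11.2 CPM.

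Members were also read in the cells that the study's filter removes, which no comparison uses. Of 15 such cells in WT, 66.7% (38.4 to 88.2) held a member UMI, where a count of 0 would allow up to 20%. Of 54 in the library labelled KO, 57.4% (43.2 to 70.8) did, where a count of 0 would allow up to 5.56%. These cells had medians of 15127 and 13900.5 UMIs, so their shares are not at the depth of the kept cells. In WT, 1 of them held 19 UMIs of Klra1, against 39 in all kept WT cells.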

How the results depend on the processing

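Of 150 summary values recomputed under alternatives, 124 stayed within their limits and 26 moved. Of 1378 values of single members, 1329 stayed, 47 moved and 2 reversed. Over the alternatives the log2 ratio, library labelled KO over WT, ran from -2.22 to -2.16 for Klrk1, from 0.32 to 0.41 for Klrd1 and from -0.87 to -0.72 for Klrc1. No paired analysis was possible because the groups hold 1 library each, and none could be left out.

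With all barcodes, 0 members were at least 2-fold higher in the library labelled KO (1 with the filter; Klra1 at 0.91), and Klra1 in KO-labelled Tcrg-V1 over WT Tcrg-V4 cells reversed from 1.30 to -0.41, since 1 unfiltered WT cell holds 19 of its UMIs. With cells labelled KO holding a Tcrg-V4 UMI left out, a choice made after seeing the data, Klrd1 by Gzma in that library reversed from 0.24 to -0.083 and the cause was not tested.

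Counts of members moved with the UMI minimum, which sets how many are measured. With at least 100 UMIs, 4 members (8 with 30) were lower in the library labelled KO. In Tcrg-V groups 2 (4) were higher in WT Tcrg-V4 than Tcrg-V6 cells, 4 (7) higher in KO-labelled Tcrg-V1 than WT Tcrg-V6 cells and 2 (4) lower in KO-labelled Tcrg-V1 than WT Tcrg-V4 cells. In WT 6 (13) were higher with Ly6c2, 6 (13) higher with Gzma and 6 (12) lower with Tmem176b, and 7 (11) higher with Gzma in the library labelled KO. With at least 10 UMIs the WT counts were 20, 20 and 19, and 7 for Tcrg-V4 over Tcrg-V6. With at least 2 UMIs of the Tcrg-V gene, 2 and 3 members were higher in the first 2 Tcrg-V comparisons. With cells thinned before marker detection and summing, 7, 8 and 7 members of 9 were counted in the WT splits by Ly6c2, Gzma and Tmem176b.

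The share of cells with at least 1 member was 28.2% in WT and 19.6% in the library labelled KO at 1000 UMIs, and 49.7% and 39.1% without thinning. For at least 2 members it was 6.37% and 4.27%, and 17.8% and 12.7%. Depth limits all shares, and the sparse Klra genes most.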

Other observations

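Smaller groups by variable gene were not compared. In WT, 32 cells with Tcrg-V7 alone had 322.5 CPM of Klrd1, 79.0 of Klrk1 and 26.3 of Klrc1, and at least 2 members were read in 35.5% of the 31 that reached 2000 UMIs. The 49 WT cells with Tcrg-V5 alone had 247.7 CPM of Klrk1 and 96.7 of Klrd1. The 84 WT cells with Tcrg-V1 alone had 106.0 CPM of Klrk1, 154.4 of Klrd1 and 66.6 of Klrc1. In the library labelled KO, 82 cells with Tcrg-V3 alone had 236.8 CPM of Klrd1 but 3.0 CPM each of Klrk1 and Klrc1. Cd8b1, listed here among genes of αβ T cells, was at 17.9 CPM in WT and 75.2 CPM in the library labelled KO. The αβ receptor genes differed among themselves, with Trbc1 at 178.1 and 254.1 CPM, Trbc2 at 648.7 and 848.5 CPM and Trac at 28.4 and 29.2 CPM. The log2 ratios of Trac (0.04), Cd8a (0.10) and Cd4 (0.64) had intervals that held 0. Whether αβ T cells were present, and the part of cells with these genes in the levels of Klrd1, were not tested.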
